A study of Homo sapiens with 6 samples.

Results

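Isolated MYC places are sites on the autosomes where at least 2 of 3 MYC libraries gave a peak and where no other such site lay within 500 kb on either side. Overlapping peaks of the 3 lists (1 bp or more) were joined into 1 place, and a place to which at least 2 libraries contributed belonged to the consensus. Of 17133 consensus places on chromosomes 1 to 22, 277 were isolated, which is 1.62% of them. Another 16856 consensus places had a closer neighbour and served for comparison. The 277 places were chosen by the presence and position of the peak calls, which are measured values of the same libraries, so fold enrichment, width, sharing and background are described below without a test.

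The libraries came from ONS76, an established cell line of human medulloblastoma, a tumor of the cerebellum, engineered with inducible SOX2. The study did not raise SOX2 for this experiment. Chromatin was cross-linked with formaldehyde, sheared by sonication and immunoprecipitated with the MYC antibody Y69 in 3 libraries, or with normal IgG, a non-specific antibody, in another 3. Only the MYC libraries were analysed here, through 1 peak list each. All values describe 1 cell line. Per the study's methods, 3 immunoprecipitations from a single batch of chromatin were pooled before the DNA was extracted. No source used here says that the replicates were separate cultures, so the SD over replicates may be technical.

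MYC is a transcription factor of the basic helix-loop-helix leucine zipper class that binds DNA as a dimer with MAX, preferably at E-box motifs. It is known for occupying promoters of active genes, many of them for ribosome assembly, translation and metabolism, and also distal regulatory elements. Genes are unevenly spread in the human genome, and long stretches hold few of them. MYC itself is a known driver of aggressive medulloblastoma. The coordinates of the lists are in hg19 and the genome used here is of another build, so genes and sequences at the places are not given.

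The 3 peak lists held 24529, 16612 and 17098 autosomal peaks in replicates 1, 2 and 3. The lists carry no read totals. As a measure of depth, the genome-wide background of each list was used, which is the fragment number expected at any site if fragments were spread evenly. It was 7.79, 5.84 and 4.76 fragments. Replicate 1 was thus the library with the highest level. It had a peak at 273 of the 277 isolated places (98.6%), against 229 in replicate 2 (82.7%) and 238 in replicate 3 (85.9%). At the other consensus places these shares were 98.3%, 86.0% and 88.0%.

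To see how far apart MYC places lay, the distance from each consensus place to its nearest neighbour was measured from edge to edge. The median over the consensus was 18.6 kb, with the middle 50% of places between 4.51 and 54.8 kb. Among isolated places the median distance was 745 kb, and the middle 50% lay between 607 and 1065 kb. In 78 of them the nearest other place was at least 1 Mb away, and in 17 at least 2 Mb. Of all 17111 intervals between consecutive consensus places, 1180 (6.90%) were 500 kb or longer, and these made up 57.3% of the 2777 Mb between the first and last places of the autosomes. Most of the autosomal sequence thus lay in long stretches without a consensus MYC place. Such a stretch and a part of the assembly that cannot be mapped cannot be told apart in these lists.

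Some isolated places followed one another, and 78 of the 1180 intervals of 500 kb or longer lay between 2 isolated places. The distance rule favours this in part, since the neighbour of an isolated place already has 1 long interval. How many such series the rule alone would give was not counted. There were 199 stretches of consecutive isolated places, of which 141 held a single place, 44 held 2, 10 held 3, 3 held 4 and 1 held 6. The longest such series was on chromosome 5 from 23011685 to 29192175, where 6 isolated places in 6.18 Mb were flanked by empty intervals of 1.55 and 1.63 Mb, and 4 of the 6 had peaks in all 3 replicates. A series of 4 on chromosome 2 from 139258898 to 148778594 spread over 9.52 Mb. The other series of 4 were both on chromosome 1, from 188726822 to 191104704 and from 72748498 to 74664217, and all 8 of their places were found in all 3 replicates.

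The 5 most remote places were on chromosomes 13, 21, 4 and 11. The place on chromosome 13 from 60970982 to 60971729 was 7.74 Mb from its left and 6.83 Mb from its right neighbour. Its fold enrichment (summit fragments over the local background, each with 1 added by MACS2) was 6.37, 4.68 and 4.86 in replicates 1, 2 and 3, on 55, 31 and 27 fragments. The right neighbour, on chromosome 13 from 67804412 to 67804880, ranked next, with 5.50 Mb to the next place. Its fold enrichment was lower than at the first place in each replicate, at 4.21, 3.36 and 4.52. The medians over all isolated places were 4.82, 4.39 and 4.74, so the first place was above the median and the second below it in each replicate.

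Next in distance, the place on chromosome 21 from 11098626 to 11099144 was the first consensus place of its chromosome and lay 5.34 Mb from the next. Fold enrichment there was 10.0, 8.09 and 8.59, and the local background was 2.08, 2.16 and 2.04 times the genome-wide level. Its fold enrichment was thus above the isolated median in each replicate, on a raised control signal. Whether part of its distance is sequence that cannot be mapped cannot be told from these lists. At chromosome 4, positions 134069253 to 134069761, peaks were called in replicates 1 and 3 with a fold enrichment of 4.55 and 3.84, and the nearest place was 4.34 Mb away. The place on chromosome 11 from 102323182 to 102323838 was 3.84 Mb from its nearest neighbour and had a fold enrichment of 3.98, 3.22 and 4.69.

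Isolated places were on all autosomes except chromosome 19. Chromosome 2 held the most (35 places), followed by chromosome 4 (30), chromosome 3 (24) and chromosome 1 (21). As a share of the consensus places of the chromosome, isolation was most frequent on chromosome 4 (8.40% of 357) and chromosome 13 (6.54% of 214), which had 1.87 and 2.26 consensus places per Mb, the fewest of the 22. It was least frequent on the chromosomes with most places per Mb. The distance rule largely builds in both, since fewer places per Mb leave longer gaps. Chromosome 19 (17.3 per Mb) had none of 1016, chromosome 17 (15.0 per Mb) had 4 of 1213 and chromosome 20 (12.7 per Mb) had 1 of 799. Chromosomes 4, 13 and 18 together held 54 isolated places, 19.5% of them, against 5.01% of the consensus. On these 3 chromosomes 33 of the 54 isolated places (61.1%) were found in all 3 replicates, against 153 of 223 (68.6%) on the other autosomes. Over all consensus places of chromosomes 4, 13 and 18 the shares were 69.5%, 66.4% and 71.2%. The isolated places there are few, and the difference was not tested.

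**Figure D1:**
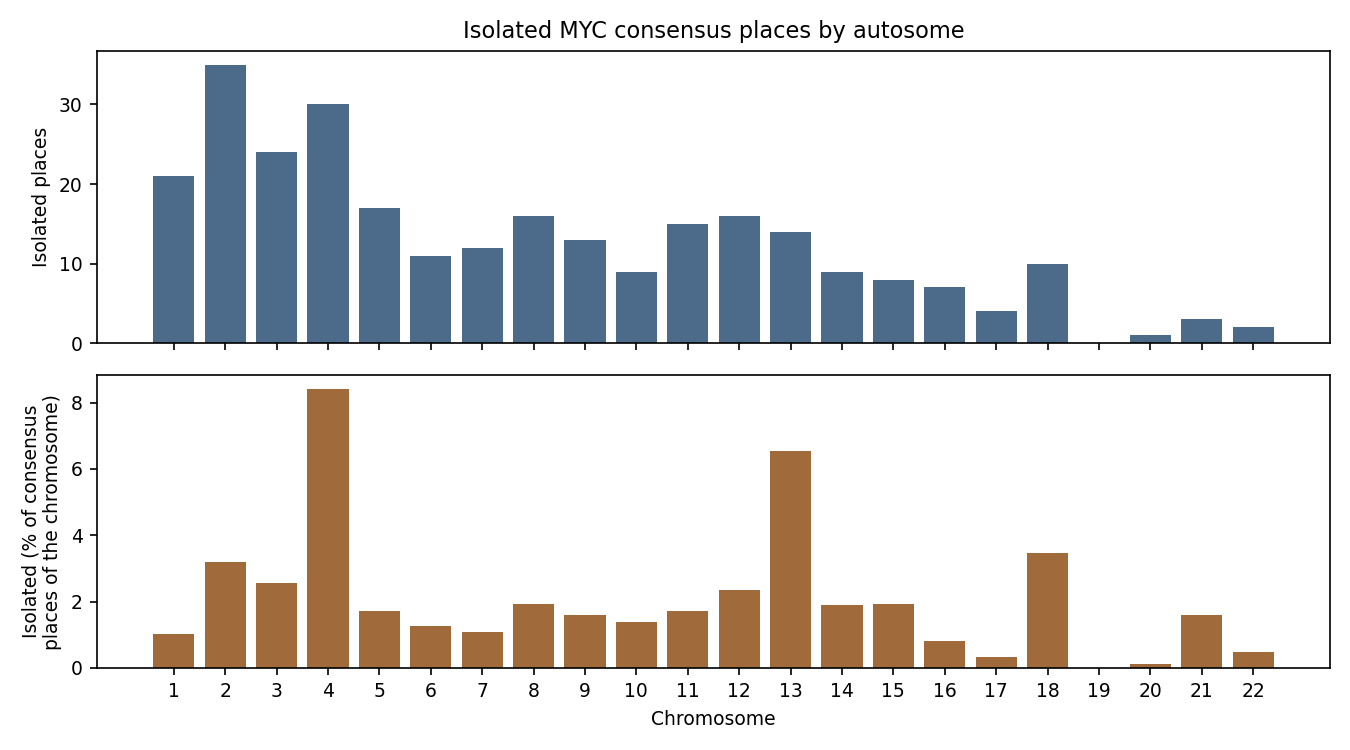
Number of isolated MYC places on each autosome (upper bars) and their share of all consensus places of that chromosome in percent (lower bars). Chromosomes 2 and 4 have the most isolated places (35 and 30), chromosomes 4 and 13 the highest shares (8.40% and 6.54%), and chromosome 19 has none.

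Sharing between replicates was compared next. At 186 isolated places all 3 replicates had a peak, which is 67.1% (95% Wilson interval 61.4% to 72.4%), against 72.2% of the whole consensus and 72.3% of the 16856 other places (71.6% to 72.9%). These intervals cover counting error only and treat places as independent. The difference, isolated minus other, was -5.12 percentage points. Its size depended on the setting, at -8.10 points with a distance threshold of 250 kb, -12.0 with 1 Mb, -8.94 when every merged place counted as a neighbour and -9.16 when each list was cut to the same number of its strongest peaks. It was -3.01 points when shared peaks had to overlap reciprocally by 50%, and -0.365 against the places next to isolated ones, a comparison chosen after seeing the data. Of the 91 isolated places with peaks in exactly 2 replicates, 48 lacked a peak in replicate 2, 39 in replicate 3 and 4 in replicate 1.

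Sharing was more frequent at higher fold enrichment in both sets. Places were put in classes by their highest fold enrichment in any replicate, which is taken over 3 values at fully shared places and over 2 at the rest, so the classes are not independent of sharing. Below 4, all 3 replicates had a peak at 17 of 63 isolated places (27.0%) and at 28.6% of other places. From 4 to 6 the shares were 66.1% of 109 isolated and 66.7% of other places. From 6 to 10 they were 90.1% of 81 isolated (95% Wilson interval 81.7% to 94.9%) and 96.3% of other places (95.7% to 96.8%). At 10 or more, all 24 isolated and all 2156 other places were found in all 3 replicates. With the other places weighted to the fold classes of the isolated ones, the difference in sharing was -2.42 percentage points.

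Fold enrichment was slightly lower at isolated places in every replicate. Where a replicate had several peaks at 1 place, the peak with the highest −log10 p-value was used. The median was 4.82 at isolated against 5.03 at other places in replicate 1, 4.39 against 4.70 in replicate 2 and 4.74 against 5.04 in replicate 3. Isolated places thus had 0.959, 0.934 and 0.941 times the fold enrichment of other places (mean 0.945 ± 0.0127, SD, n = 3). The upper part of the distribution differed more. The 75th percentile was 6.49, 5.59 and 6.25 at isolated places and 7.17, 6.47 and 6.95 at other places, a ratio of 0.890 ± 0.0218 (SD, n = 3). A fold enrichment of 10 or more was seen at 20, 7 and 12 isolated peaks in replicates 1, 2 and 3 (7.33%, 3.06% and 5.04%), against 11.2%, 8.29% and 10.2% of the peaks at other places.

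The difference was present at places shared by all replicates. There, median fold enrichment was 5.57, 4.68 and 5.06 at isolated and 5.89, 5.12 and 5.53 at other places. Where exactly 2 replicates had a peak, it was 3.76, 3.51 and 3.75 at isolated and 3.72, 3.58 and 3.82 at other places, a difference of no constant sign.

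Fragments at the summit, recovered from the deposited fold enrichment and p-value, were fewer at isolated places. The median was 47 against 54 fragments in replicate 1, 31 against 36 in replicate 2 and 28 against 32 in replicate 3, a ratio of 0.869 ± 0.00707 (SD, n = 3). Fragments thus differed more than fold enrichment, and the background in the denominator of the fold was lower too. Peaks at isolated places were narrower, with a median width of 557, 421 and 384 bp against 631, 469 and 471 bp at other places (ratio 0.865 ± 0.0439, SD, n = 3). The merged places had a median width of 589 bp when isolated and 680 bp otherwise. Only 4 isolated places (1.44%) were 2000 bp or wider, against 1.92% of other places, and with so few these shares cannot be told apart. Median −log10 p-values were 18.5, 12.5 and 12.5 at isolated and 22.2, 14.9 and 14.8 at other places.

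The local background differed as well. MACS2 sets it to the genome-wide level or, where the control signal in a window around the summit is higher, to that signal. A peak at the genome-wide level is therefore one where the control was at or below its average. Of the peaks at isolated places, 54.6% in replicate 1, 67.2% in replicate 2 and 68.9% in replicate 3 were at this level, against 26.2%, 40.5% and 39.8% of the peaks at other places. The mean was 63.6% ± 7.84 at isolated and 35.5% ± 8.08 at other places, a difference of 28.1 ± 1.23 percentage points (SD, n = 3). In every replicate that called the place, 126 isolated places had a peak at this level (45.5%, 95% Wilson interval 39.7% to 51.4%), against 22.6% of the whole consensus and 22.2% of other places. It was raised in every calling replicate at 62 isolated places (22.4%), against 52.0% of other places.

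**Figure D2:**
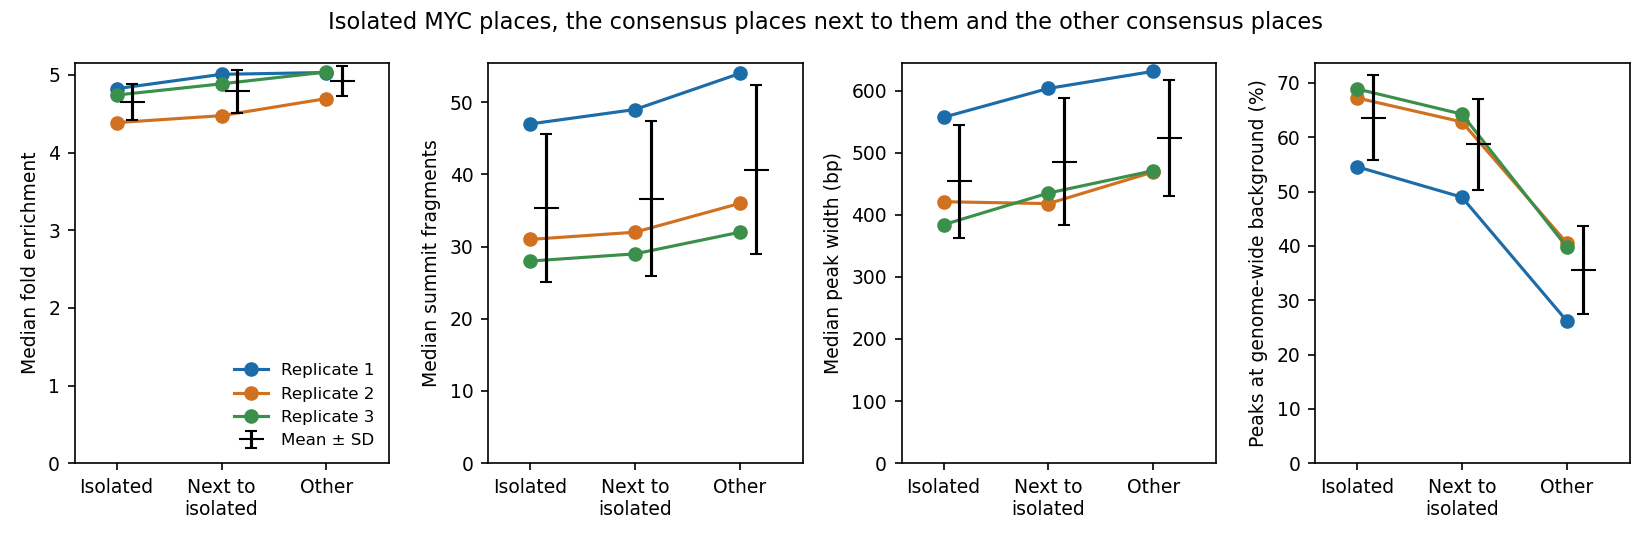
Median fold enrichment, median summit fragments, median peak width in bp and percent of peaks at the genome-wide background for isolated places, the consensus places next to them and all other consensus places (which include the places next to isolated ones). Coloured points are replicates and black bars the mean ± SD (n = 3). Isolated places have the lowest fold enrichment and fragments in each replicate, and their share at the genome-wide background (mean 63.6%) is near that of the places next to them (58.7%) and above the other places (35.5%).

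Chromosomes differed in background, and isolated places were unevenly spread over chromosomes, so the comparison was repeated with chromosome taken into account. When the other places were weighted to the chromosomes of the isolated ones, 50.2% ± 8.92 (SD, n = 3) of their peaks were at the genome-wide level, and the difference from the isolated places was 13.4 ± 1.68 percentage points instead of 28.1. Within the 17 chromosomes with at least 5 isolated places, the share at the genome-wide level was higher at isolated places in all 3 replicates on 9, lower in all 3 on 2 (chromosomes 10 and 18) and of mixed direction on 6. The difference was largest on chromosome 11, at 47.5 ± 3.81 percentage points, and chromosome 3, at 38.3 ± 4.41 (SD, n = 3). Chromosome 4 showed no constant direction (-0.363 ± 3.26), and there 90.7% of the peaks at other places were already at the genome-wide level. The fold enrichment ratio under the same weights was 0.938 ± 0.00653 (SD, n = 3), and the median fold was lower at isolated places in all 3 replicates on 7 of the 17 chromosomes, higher in all 3 on chromosome 5 and mixed on 9.

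A closer comparison was with the 394 consensus places that were the immediate neighbours of isolated places but had a nearer place on their other side. Their median fold enrichment was 4.79 ± 0.279, against 4.65 ± 0.232 at the isolated places (SD, n = 3), and the ratio of isolated to neighbouring places was 0.971 ± 0.00845. Median summit fragments were 49, 32 and 29 at the neighbours and 47, 31 and 28 at the isolated places. The share at the genome-wide background was 58.7% ± 8.45 at the neighbours, 4.89 ± 0.633 percentage points below the isolated places (SD, n = 3). All 3 replicates had a peak at 266 of the neighbours (67.5%), close to the 67.1% of isolated places. Each of these differences was smaller than the one from the whole set of other places.

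The values were then followed over classes of distance. The share of peaks at the genome-wide background was 31.6% ± 9.06 (SD, n = 3) for the 4528 places with a neighbour within 5 kb, 41.3% ± 8.10 from 50 to 100 kb and 56.5% ± 7.75 from 250 to 500 kb. It was 61.6% ± 9.49 from 500 to 1000 kb, 67.6% ± 6.10 from 1000 to 2000 kb and 74.1% ± 10.6 in the 17 places beyond. The last step was not seen in replicate 3, where the share was 72.0% from 1000 to 2000 kb and 62.5% beyond. The share was higher from 250 to 500 kb than from 50 to 100 kb in each replicate, so the difference was already present below 500 kb. Median fold enrichment had a different course: 4.70 ± 0.166 within 5 kb, 5.13 ± 0.272 from 50 to 100 kb, 4.79 ± 0.257 from 250 to 500 kb and 4.45 ± 0.389 from 1000 to 2000 kb (SD, n = 3). Places with a neighbour within 5 kb thus had a median close to that of isolated places from 500 to 1000 kb (4.75 ± 0.205). Sharing by all 3 replicates was 70.5% within 5 kb, 74.0% from 50 to 100 kb and 62.8% from 250 to 500 kb (95% Wilson interval 58.2% to 67.1%). Among isolated places it was 69.8% from 500 to 1000 kb (63.1% to 75.8%), 59.0% from 1000 to 2000 kb (46.5% to 70.5%) and 64.7% beyond (41.3% to 82.7%).

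**Figure D3:**
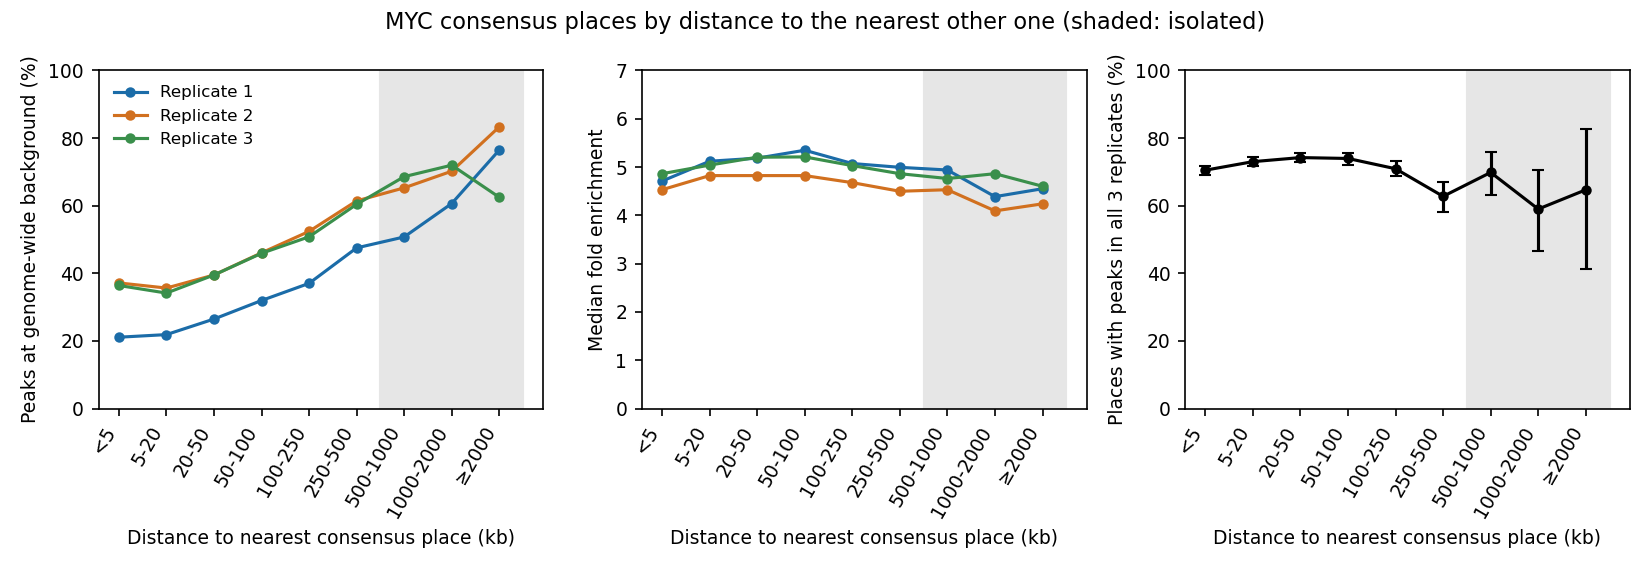
Percent of peaks at the genome-wide background and median fold enrichment in each replicate, and percent of places with peaks in all 3 replicates with 95% Wilson intervals, by distance to the nearest consensus place in kb. The shaded classes are the isolated places. The share at the genome-wide background is higher in the remote classes (mean 31.6% within 5 kb and 67.6% from 1000 to 2000 kb), while median fold enrichment is highest from 50 to 100 kb (mean 5.13).

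At the threshold itself, values on the 2 sides were mixed. The isolated place nearest to the limit (chromosome 2, 215674031 to 215675072) had a neighbour at 501 kb and a fold enrichment of 10.0, 7.46 and 6.43. The next, on chromosome 7 from 143598594 to 143599288 at 505 kb, had 3.03, 3.12 and 3.02, and the one on chromosome 3 from 24535565 to 24536756 at 506 kb had 3.85, 3.65 and 3.65. Just outside, a place on chromosome 17 from 69434788 to 69435229 at 499.9 kb had 5.82, 5.29 and 4.43. Those on chromosome 12 from 9101883 to 9102974 (497 kb) and on chromosome 3 from 67048388 to 67049276 (497 kb) had 6.03, 6.72 and 4.69, and 7.28, 4.97 and 6.43. All 6 were called in all 3 replicates, and the values inside and outside overlapped.

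Some isolated places carried strong MYC signal. Ranked by geometric mean fold enrichment among the 12368 places found in all 3 replicates, the strongest isolated place was number 56, and 5 of the 186 isolated ones (2.69%) were among the first 1000, which hold 8.09% of such places. It lay on chromosome 5 from 170814349 to 170815972, 617 kb from its nearest neighbour. Fold enrichment there was 33.6, 20.6 and 26.3 (26.8 ± 6.50, SD, n = 3) on 331, 181 and 162 fragments, and the 3 summits lay within 15 bp. Replicate 1 was the highest and replicate 2 the lowest.

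The next, on chromosome 14 from 59950404 to 59951543, gave 18.8, 17.8 and 21.4 in fold enrichment (19.3 ± 1.83, SD, n = 3), also with summits within 15 bp. It was above the next, on chromosome 3 from 54925205 to 54925910, in each replicate, although by little in replicate 1. The latter had 18.2, 13.01 and 11.6 (14.3 ± 3.47, SD, n = 3), with background at the genome-wide level in all 3 replicates. It was the most remote of the 10 strongest, with 1.54 Mb to the left and 1.67 Mb to the right neighbour.

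Ranks 4 and 5 overlapped in fold enrichment. They were on chromosome 15 from 35837859 to 35838692, with 13.2, 12.1 and 13.9, and on chromosome 18 from 13726082 to 13727195, with 15.7, 11.8 and 11.1. The place on chromosome 9 from 7799146 to 7799884 had 12.9, 11.1 and 9.59 on a background of 1.57, 1.45 and 1.61 times the genome-wide level. It was the only one of the 10 whose mean background was above 1.5 times that level.

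The remaining 4 of the 10 had mean fold enrichments between 10.5 and 11.03 that differed by less than their SD. They lay on chromosome 3 from 3168334 to 3169564 (11.03 ± 1.58), the first consensus place of that chromosome, chromosome 17 from 12920685 to 12921603 (10.8 ± 2.23), chromosome 10 from 50746738 to 50747918 (10.9 ± 3.19) and chromosome 8 from 52811001 to 52812688 (10.5 ± 0.862; SD, n = 3). Summits of the 3 replicates were at most 73 bp apart at each of the 10 strongest places.

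**Figure D4:**
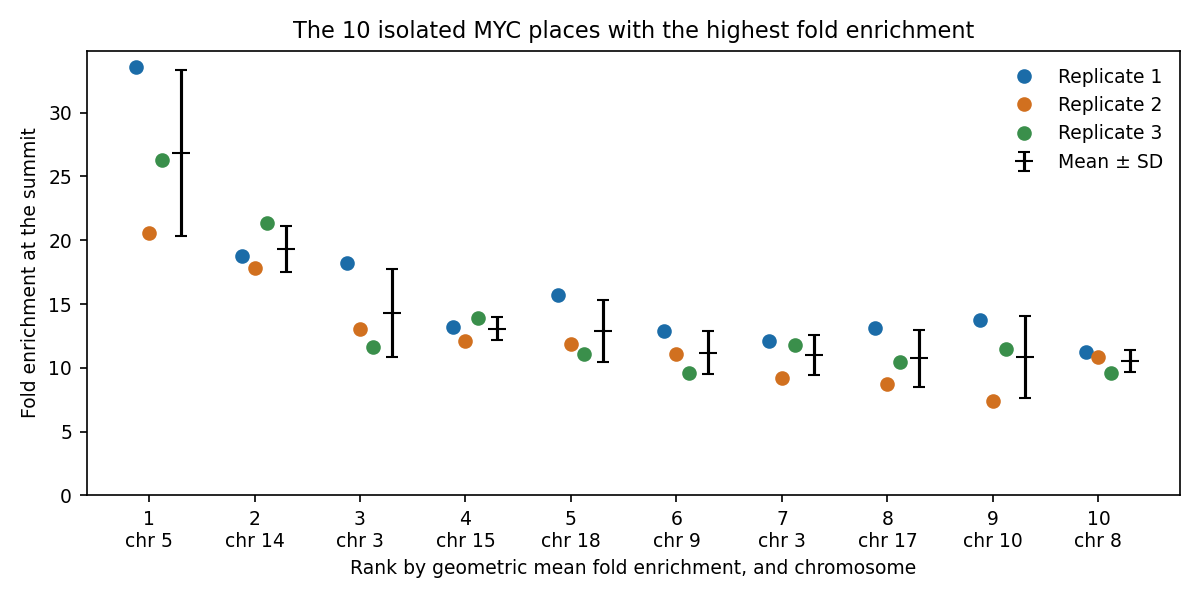
Fold enrichment at the summit in each of 3 replicates for the 10 isolated places with the highest geometric mean, labelled by rank and chromosome, with the mean ± SD in black. The place on chromosome 5 (26.8 ± 6.50) and the one on chromosome 14 (19.3 ± 1.83) lead, and ranks 7 to 10 overlap.

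At the low end, the 5 isolated places with the lowest geometric mean had fold enrichments between 2.16 and 3.08. Of these, 4 had peaks in only 2 replicates. The lowest, on chromosome 4 from 190643680 to 190644050, was the last consensus place of that chromosome, with 2.57 and 2.50 in replicates 1 and 3 on 55 and 34 fragments. Its fragment number was above the isolated median of 47 and 28, while its background was 2.67 and 2.73 times the genome-wide level. The only one of the 5 with peaks in all 3 replicates, on chromosome 9 from 43686473 to 43687089, had 2.64, 2.29 and 3.08 on a background of 2.30, 2.38 and 2.32. The next consensus place to its right was 22.8 Mb away, an interval that may hold sequence that cannot be mapped. The low place on chromosome 4 from 149366403 to 149367009 differed from both of these places in its background. That background was at the genome-wide level in both replicates that called it, with 23 and 17 fragments.

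A control background of 1.5 times the genome-wide level or more was less frequent at isolated than at other places. This was counted without weights by chromosome. The mean relative background (local background in multiples of the genome-wide level) was 2 or more at 5 isolated places (1.81%), against 2.90% of other places. With so few isolated places, these 2 shares cannot be told apart. Counted by peaks, a relative background of 1.5 or more was seen at 12.1%, 4.80% and 5.88% of peaks at isolated places in replicates 1, 2 and 3, against 24.2%, 11.9% and 13.8% of peaks at other places (mean 7.59% ± 3.93 against 16.6% ± 6.66, SD, n = 3), and the share was lower at isolated places in each replicate. The highest relative background was on chromosome 1 from 144009736 to 144010477, at 4.24, 3.72 and 4.15 times the genome-wide level. This place also had a high fold enrichment of 10.6, 9.55 and 7.80, on 361, 216 and 161 fragments, and the 3 summits lay within 23 bp. The next highest backgrounds were at the places on chromosomes 4 and 9 just described.

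**Figure D5:**
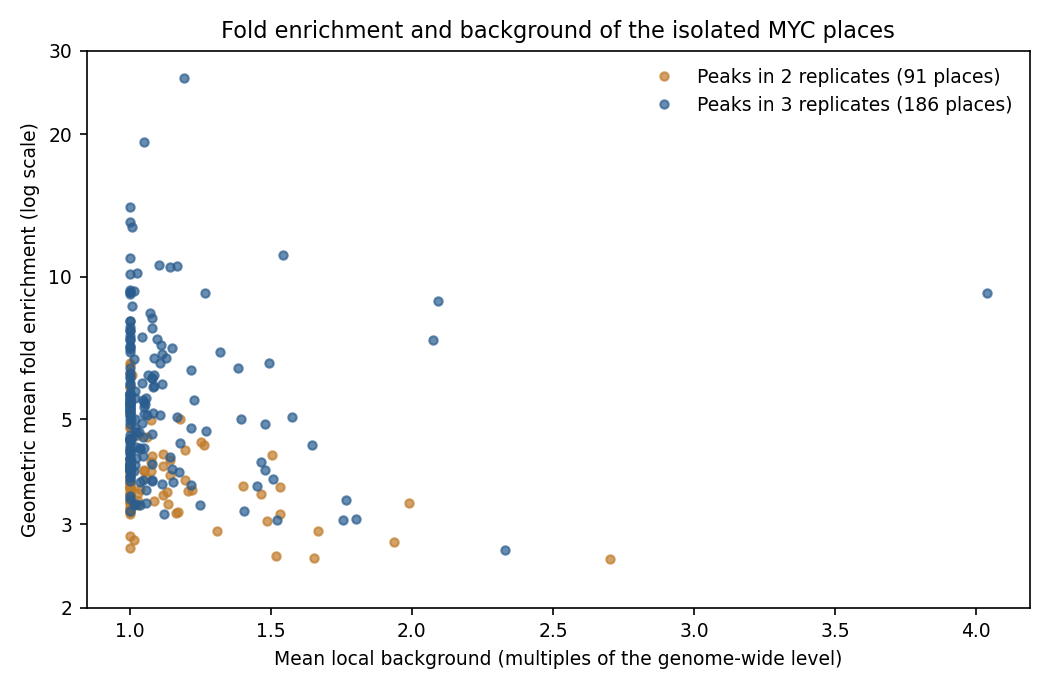
Geometric mean fold enrichment (log scale) against the mean local background in multiples of the genome-wide level for the 277 isolated places, coloured by the number of replicates with a peak (91 places with 2, 186 with 3). Most places sit at or near a background of 1, and 5 places are at 2 or more.

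The widest isolated place was 2659 bp, on chromosome 8 from 89338584 to 89341242, with fold enrichments of 7.92, 5.62 and 5.76, and its summits were 781 bp apart. The next were 2535 bp, on chromosome 16 from 54962405 to 54964939, and 2477 bp, on chromosome 11 from 58345182 to 58347658. Their summits were only 27 and 31 bp apart, with fold enrichments of 5.46, 3.51 and 4.86, and of 10.2, 5.34 and 8.68. Over all isolated places, 11 (3.97%) had more than 1 peak in a replicate, against 5.67% of other places.

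By the median distance, replicates placed the summits of isolated places nearly as closely together as those of other places. The median distance was 33 bp between replicates 1 and 2 (225 places), 36.5 bp between 1 and 3 (234) and 34 bp between 2 and 3 (190), against 34, 34 and 35 bp. For the same pairs, 80.4%, 76.1% and 75.3% of isolated places had summits within 100 bp, against 80.7%, 80.7% and 79.7% of other places. Across isolated places, log2 fold enrichment of these pairs had a Spearman's rho of 0.713, 0.744 and 0.773 and a Pearson's r of 0.790, 0.812 and 0.832. At other places rho was 0.808, 0.805 and 0.824. These correlations are across places of the same libraries, which are not independent.

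Isolation from the consensus was not always isolation from every peak call. Within 500 kb of 198 isolated places there was at least 1 place called in a single replicate, with a median of 1 and at most 7, and 79 isolated places (28.5%) had none. The same count was not made for the other consensus places, so it does not show whether 198 is many or few. The neighbours called in a single replicate were 368 places, of which 282 were in replicate 1 alone, 46 in replicate 2 alone and 40 in replicate 3 alone. Their median fold enrichment was 3.35, 3.15 and 3.21, below the 4.82, 4.39 and 4.74 of isolated places in the same replicates. The 2 sets were chosen by the number of replicates with a peak, which rises with fold enrichment. This difference is therefore not a result about these neighbours.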

How the data were processed

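The labels gave the groups and the replicate numbers. Per the study's methods and the labels, the authors aligned reads to hg19 with Bowtie2 and called peaks in each library with MACS2 (q-value of 0.05). The sources used here do not give the control, the handling of duplicates or the versions. The deposited lists give for each peak its position, the fold enrichment as a ratio, the −log10 p-value and −log10 q-value, and a score that is the integer part of 10 times the latter. Summit fragments and local background were recovered by finding the whole fragment number whose Poisson tail matched the deposited −log10 p-value within 0.001, which was found for 100% of peaks in each list. Backgrounds within 0.1% of the lowest in a list were counted as the genome-wide level. Recovery, merging and isolation were tested on simulated data. Python 3.11.15, pandas 2.3.3 and SciPy 1.17.1 were used. Coordinates are counted from 1. A place at the end of a chromosome was kept when its only neighbour was at least 500 kb away (4 of 277). The named places were the 10 strongest in all 3 replicates, the 5 most remote, the 5 weakest, the 3 widest, the 3 with the highest background and the 3 on each side of the distance threshold. The isolated places and these rules were chosen with earlier results of these data known. The gene context, gene lists and sequence planned for the places were not run, because the genome used here is of hg38 and no position was carried between builds. Alternatives were other distances, neighbours, chromosomes, q-values, overlaps, consensus rules, numbers of peaks and comparison sets, and leaving out each replicate.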

Additional observations from a re-analysis of the deposited data

Results flagged for a closer look

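On chromosome X, which lies outside the autosomes compared, 24 of 217 consensus places (11.1%) were isolated by the same rule, a share above that of each autosome. Of the 24, 10 had peaks in all 3 replicates. Sharing was not counted at the other places of the chromosome, so these 10 cannot be read as a trait of isolation. The median fold enrichment of the 24 isolated places was 5.12, 4.46 and 5.12 in replicates 1, 2 and 3, against 5.09, 4.53 and 4.69 at the other places of the chromosome. Places called in a single replicate, which the consensus leaves out, numbered 368 within 500 kb of an isolated autosomal place, 3.58% of all 10266 such places. The share of them in replicate 1 alone was 76.6%, against 73.7% over all autosomes. Both are counts from the same peak calls, and no control library gives a level for either. No replicate group had enough samples for a check of single outlying values.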

How the results depend on the processing

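No result changed direction in the alternatives run, where values given per replicate were judged by their mean. The 277 isolated places became 731 with a distance threshold of 250 kb, 78 with 1 Mb and 79 when every merged place counted as a neighbour, as fewer or more places then qualify by construction; in the other 10 alternatives the number stayed within 1.5 times. The fold enrichment ratio of 0.945 was 0.904 at 1 Mb, 0.967 with every merged place as a neighbour, 0.930 within chromosomes and 0.925 at places called in all 3 replicates. It was 0.971 against the places next to isolated ones. Summit fragments over the genome-wide level gave 0.869. This repeats the ratio of summit fragments given above, since each replicate is divided by 1 constant. The width ratio of 0.865 was 0.818 at 1 Mb and 0.938 ± 0.0635 (SD, n = 3) against the places next to isolated ones. In that last comparison replicate 2 had the other direction, with a median width of 421 bp at isolated places and 418 bp at the neighbours. The difference in sharing of -5.12 percentage points was -12.0 at 1 Mb, -8.10 at 250 kb, -8.94 with every merged place as a neighbour, -9.16 with equal numbers of the strongest peaks and -0.365 against the places next to isolated ones. The difference in the share at the genome-wide background, 28.1 percentage points, was 24.2 at 250 kb, 33.1 at 1 Mb, 32.0 with every merged place as a neighbour, 30.1 with chromosome X, 13.4 with weights by chromosome and 4.89 against the places next to isolated ones. The cause of these shifts was not tested. The weights by chromosome, the places next to isolated ones and the summit fragments over the genome-wide level were chosen after seeing the data.

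Leaving out a replicate gave 299 to 318 isolated places, a fold enrichment ratio of 0.941 to 0.949, a width ratio of 0.841 to 0.926 and a difference in the share at the genome-wide background of 26.2 to 27.3 percentage points. Sharing by all 3 replicates has no value when a replicate is left out or all 3 are required. No paired analysis was possible because only the MYC group has peak lists, with no test against IgG, although both carry the same numbers. Depth limits the weakest isolated peaks, which held 23, 17 and 16 fragments in replicates 1, 2 and 3, so a place without a peak in 1 replicate may still be bound there.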
